A study of Bos taurus with 8 samples.

Results

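Collagens are the main structural proteins of skin, bone, cartilage and basement membranes, and each consists of 3 chains wound into a triple helix. Fibroblasts of the dermis secrete fibrillar collagens of types I, III and V. Chondrocytes make types II, IX, X and XI, and type IV collagens form the mesh of basement membranes under epithelia and vessels. DNA methylation near the start of a gene is, as general background, often low where the gene can be transcribed, whereas the body of a transcribed gene is often methylated.

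The collagen genes were all windows on chromosomes 1 to 29 whose gene name was COL, a number, A and a number, a choice by name alone that used no value of a window. Earlier results of these data were known when the collagens were picked as the set to describe. The rule gave 39 genes and 1436 windows of 3 Kb, of 24038 named genes and 335024 gene windows on those chromosomes. The genes lay on 18 chromosomes of the UMD v3.1 bovine assembly. By role, 5 were fibrillar genes of fibroblasts (COL1A1, COL1A2, COL3A1, COL5A1 and COL5A2), 7 were cartilage genes and 4 were basement membrane genes. The rest were 3 other fibrillar genes, 7 microfibril or network genes, 6 fibril-associated genes (FACIT), 6 membrane or multiplexin genes, and COL28A1. These class names give general roles, not expression in these cultures. The study's RNA-Seq listed COL11A1, COL4A1 and COL4A2 as expressed in untreated cultures of the same animals.

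Methylation was measured by MIRA-Seq, in which methyl-binding proteins pull down methylated DNA before sequencing. The 8 samples were primary dermal fibroblast cultures at passage 5, all untreated, from 4 Holstein and 4 Angus cattle, a dairy and a beef breed, with 1 culture per animal. The comparison between breeds asked where the cultures of the breeds differed in methylation. Per sample, 18691111 to 35525554 reads were counted over 902984 windows, of which 18354 to 51503 fell in collagen windows. CPM, the reads of a window per 1000000 reads counted in that sample, was the unit throughout, and 3 reads corresponded to 0.0844 to 0.161 CPM. CPM counts DNA that was pulled down. It gives no percentage of methylated sites, and CpG content, which differs between windows, was not computed here. Fewer methylated cells in a culture and fewer methylated sites per cell cannot be told apart. Holstein 1 and Angus 3 stood apart from the other samples: their scaling factors over windows were 0.817 and 0.677, whereas those of the other 6 reached from 0.952 to 1.22.

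Most collagen genes carried more pulled-down DNA than a typical gene, and 4 of the 5 fibrillar genes of fibroblasts carried less, with COL5A1, at 3.69 CPM per window, as the exception. The median collagen gene had 1.06 CPM per window, against 0.550 for all named genes, and was above the all-gene median in 8 of 8 samples. Among the fibroblast fibrillar genes the median was 0.247 CPM per window, below the all-gene median in 8 of 8 samples. The median was 1.06 for cartilage genes and 1.72 for basement membrane genes, above the all-gene median in 8 of 8 samples for each. These medians are descriptions of small groups, and were not tested against each other.

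The first labelled window of a gene, in the direction of its transcription, showed the same order of these classes by median. It held coding exon 1 in 29 of the 39 collagens. Within these classes COL5A1, COL9A1, COL9A3 and COL4A1 lacked coding exon 1 there, so their values need not be those of gene starts. The median first window held 0.494 CPM over all collagens and 0.404 CPM over all named genes. It held 0.10 CPM in fibroblast fibrillar genes, 0.405 in cartilage genes and 1.20 in basement membrane genes. The fibroblast fibrillar median was below the all-gene median in 8 samples and the basement membrane median above it in 8. The cartilage median was near the all-gene median, below it in 3 samples and above it in 5. First windows under 0.25 CPM were found in 4 of the 5 fibroblast fibrillar genes, 9 of all 39 collagens and 7365 of the 24038 named genes.

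COL1A1 (chr19:37087275-37105274, + strand) encodes the alpha 1 chain of type I collagen, the main fibril protein of skin. Its first window, which holds coding exon 1, had 0.101, 0.0433, 0.227 and 0.366 CPM in Holstein 1 to 4 and 0.244, 0.209, 0.168 and 0.321 CPM in Angus 1 to 4. The breeds overlapped, and the first window was below the rest of the gene in 8 of 8 samples. The other 5 windows averaged 0.459 ± 0.137 CPM (SD, n = 8), against 0.210 ± 0.107 in the first. The level stayed near that of the first window in the second window (0.196), was 0.457 to 0.477 in windows 3 to 5, and reached 0.699 in the last, which starts at coding exon 46. Directly upstream of COL1A1, 1 unlabelled window held 0.200 CPM.

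COL1A2 (chr4:11624205-11663204, + strand), the partner chain of COL1A1 in type I collagen, was lower still. In its first window, Holstein 1 to 4 had 0, 0.216, 0 and 0.169 CPM and Angus 1 to 4 had 0.175, 0.0695, 0.0672 and 0.107 CPM, or 0 to 6 reads per sample. Holstein samples included the highest and the lowest values of the 8. The other 12 windows averaged 0.178 ± 0.0597 CPM (SD, n = 8). One stretch stood out within COL1A2: window 11, which holds coding exon 41, averaged 0.691 CPM, and no other window exceeded 0.267 CPM.

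COL3A1, the type III chain that is made alongside type I in dermis, had the lowest first window of all 39 genes. The gene (chr2:7315634-7357633, - strand) had 0, 0.0866, 0.114 and 0.0844 CPM there in Holstein 1 to 4 and 0.0698, 0.0348, 0.0336 and 0 CPM in Angus 1 to 4. No sample had more than 3 reads, so the value is at the limit that these depths resolve. The first 7 windows of COL3A1 averaged 0.026 to 0.054 CPM each, and its twelfth window, at coding exon 46, averaged 0.458 CPM. The whole gene, at 0.107 CPM per window, was at the 3.03 percentile of all named genes.

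COL5A2, a type V chain that takes part in starting fibrils, lies beside COL3A1 on chromosome 2 (7138634-7300633, + strand). It had 0, 0.0866, 0.0757 and 0.0844 CPM in the first window of Holstein 1 to 4 and 0.0698, 0.104, 0.0336 and 0 CPM in that of Angus 1 to 4. Its other 53 windows averaged 0.251 ± 0.0653 CPM (SD, n = 8), higher than the first in 8 of 8 samples.

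COL5A1, the other type V chain of this group, had a first labelled window of 2.88, 4.41, 4.62 and 4.42 CPM in Holstein 1 to 4 and 2.93, 4.07, 2.01 and 5.72 CPM in Angus 1 to 4. These values were above every first-window value of the other 4 fibroblast fibrillar genes. The COL5A1 label covered only 4 windows (chr11:106983985-106995984, - strand), the first of which starts at coding exon 2, so its first window was not the start of the gene as annotated. A further 23 windows on the same strand carried the name LOC100848491, which the RefSeq gene table gives as COL5A1. They averaged 5.30 CPM per window and were not counted among the 39 genes.

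**Figure D1:**
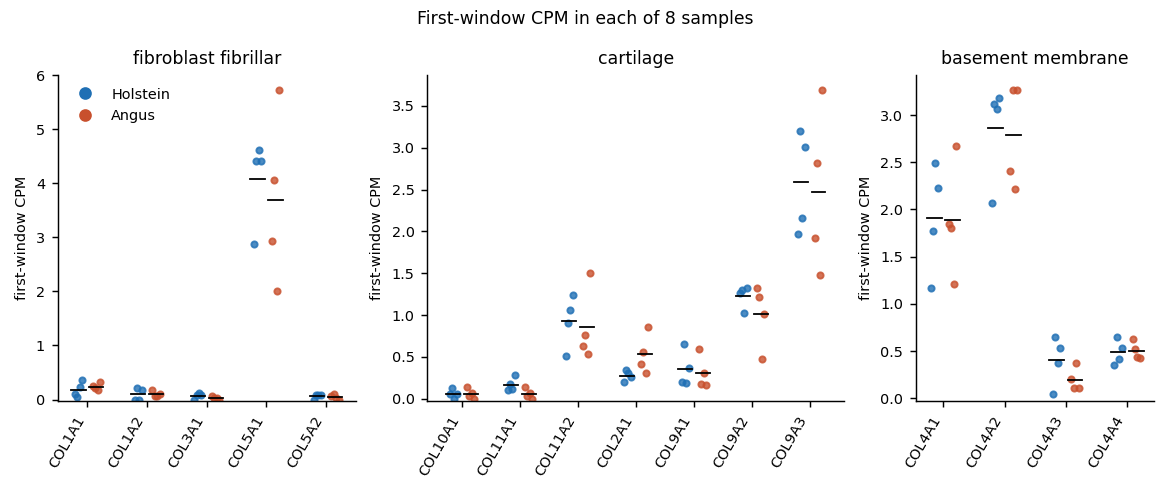
First-window CPM (vertical axis, linear, own range in each panel) of the 16 fibroblast fibrillar, cartilage and basement membrane genes, with 1 point per sample, Holstein in blue and Angus in orange, and black bars at the breed means. COL1A1, COL1A2, COL3A1 and COL5A2 lie near 0 in all 8 samples, COL5A1 lies between 2.01 and 5.72 CPM, and the breeds overlap in all 16 genes.

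The cartilage genes did not share one level. COL10A1, a marker of hypertrophic chondrocytes, had 0.0598 ± 0.0524 CPM (SD, n = 8) in its first window and COL11A1, a type XI chain, had 0.114 ± 0.0877, both below the 0.210 CPM of COL1A1. COL2A1, the main fibril chain of cartilage, had 0.405 ± 0.212 CPM. COL9A1, COL11A2, COL9A2 and COL9A3 had 0.330, 0.893, 1.12 and 2.53 CPM. COL9A1 and COL9A3 are type IX chains whose first labelled windows start at coding exon 2.

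COL2A1 (chr5:32447506-32483505, + strand) had a steep profile. Its first window held 0.202, 0.346, 0.303 and 0.253 CPM in Holstein 1 to 4 and 0.419, 0.556, 0.302 and 0.856 CPM in Angus 1 to 4. The first 4 windows averaged 0.173 to 0.618 CPM, the next 5 averaged 1.63 to 2.13 CPM, and windows 10 and 11, from coding exon 40 onward, averaged 5.58 and 4.45 CPM. The last window of COL2A1 fell back to 0.599 CPM.

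Among basement membrane genes, COL4A1 and COL4A2, the chains of the common type IV mesh, had first labelled windows of 1.90 ± 0.549 and 2.82 ± 0.502 CPM (SD, n = 8). That of COL4A2 held coding exon 1. That of COL4A1 held no coding exon, so it need not be the start of the gene. COL4A3 and COL4A4, which belong to the meshes of kidney, lung and ear, had 0.30 ± 0.218 and 0.496 ± 0.105 CPM. Each pair is arranged head to head on its chromosome, and the order of levels held over whole genes, at 2.98 and 3.61 CPM per window for COL4A1 and COL4A2 against 0.295 and 0.455 for COL4A3 and COL4A4. The labels of COL4A1 and COL4A2 left unlabelled windows between their 5′ ends, of which the 3 next to COL4A1 averaged 1.18 to 3.82 CPM and the 3 next to COL4A2 averaged 3.60 to 6.78 CPM.

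The position test compared the first window with the mean of the other windows of the same gene, within each sample. An exact two-sided sign-flip permutation test over the 8 samples was run for every named gene with at least 3 windows, with Benjamini-Hochberg adjustment over 15129 genes. The smallest p it can give is 0.0078. The first window was lower in 55.5% of all genes tested and higher in 18.9%, at adjusted p < 0.05. Of 37 collagens tested, 23 were lower, 6 were higher and 8 were neither, so the share of collagens with a low first window, at 62.2%, was near the background. COL10A1 and COL8A2, with 2 windows each, were not tested. Where the first window held coding exon 1, 19 of 27 collagens were lower, and 55.4% of all genes of that kind.

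By class, a lower first window was found in 4 of 5 fibroblast fibrillar genes, 2 of 6 cartilage genes (COL2A1 and COL11A2, with COL9A3 higher), and 2 of 4 basement membrane genes (COL4A1 and COL4A2). It was found in 5 of 6 microfibril or network genes, 5 of 6 membrane or multiplexin genes, 2 of 3 other fibrillar genes and 3 of 6 FACIT genes. COL1A1 and COL5A2 reached the smallest adjusted p (0.0125, exact permutation). COL3A1 had 0.0226 and COL1A2 0.0420, each with the first window lower in 7 of 8 samples. The COL1A2 call was lost in 7 of the 8 fits that left out 1 sample, all but that without Holstein 2 (adjusted p 0.0626 to 0.0814). COL5A1 passed in neither direction (adjusted p = 0.259, exact permutation), and without its last window, which averaged 1.22 CPM, its first window was lower than the rest.

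By the difference in CPM, the widest called gaps below the rest of the gene were in COL6A1, COL7A1 and COL27A1. On the log2 scale the gap of COL2A1 (-2.06) was wider than that of COL7A1 (-0.95). COL6A1, a chain of the beaded microfibrils of type VI collagen, had 0.354, 0.476, 0.719 and 0.647 CPM in the first window of Holstein 1 to 4 and 0.209, 0.556, 0.369 and 0.107 CPM in that of Angus 1 to 4. The second window of COL6A1 averaged 5.32 CPM, and the 6 windows after the first averaged 3.73 ± 0.587 CPM (SD, n = 8). COL7A1, the anchoring fibril protein that ties epidermis to dermis, changed from 2.06 CPM in the first window to 8.99 CPM in the second. COL27A1, a fibrillar collagen of cartilage and other tissues, had 0.276 CPM in the first window and 1.78 CPM per window after it. In each of these genes the gap was present in 8 of 8 samples (adjusted p = 0.0125, exact permutation).

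In the other direction, by the difference in CPM, stood COL18A1, COL9A3 and COL21A1. On the log2 scale COL28A1 (1.23) was above COL18A1 (0.81). COL18A1, whose C-terminal fragment is endostatin, had the highest first window of the 39 genes, with 4.30, 7.53, 6.13 and 7.94 CPM in Holstein 1 to 4 and 4.15, 5.28, 3.49 and 6.79 CPM in Angus 1 to 4. Its other windows averaged 3.14 ± 0.600 CPM (SD, n = 8). COL9A3 had 2.53 CPM in the first window and 1.24 after it, and COL21A1, a FACIT, had 1.09 and 0.322. All 3 were higher in 8 of 8 samples. The first labelled window of COL21A1 held no coding exon and that of COL9A3 started at exon 2. COL19A1, COL22A1 and COL28A1 were the remaining genes with a higher first window. The COL28A1 label starts at coding exon 2, so its first window was not the start of the gene as annotated. The part with coding exon 1, named LOC100847952, had 0.320 CPM in its first window and 0.313 CPM per window.

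**Figure D2:**
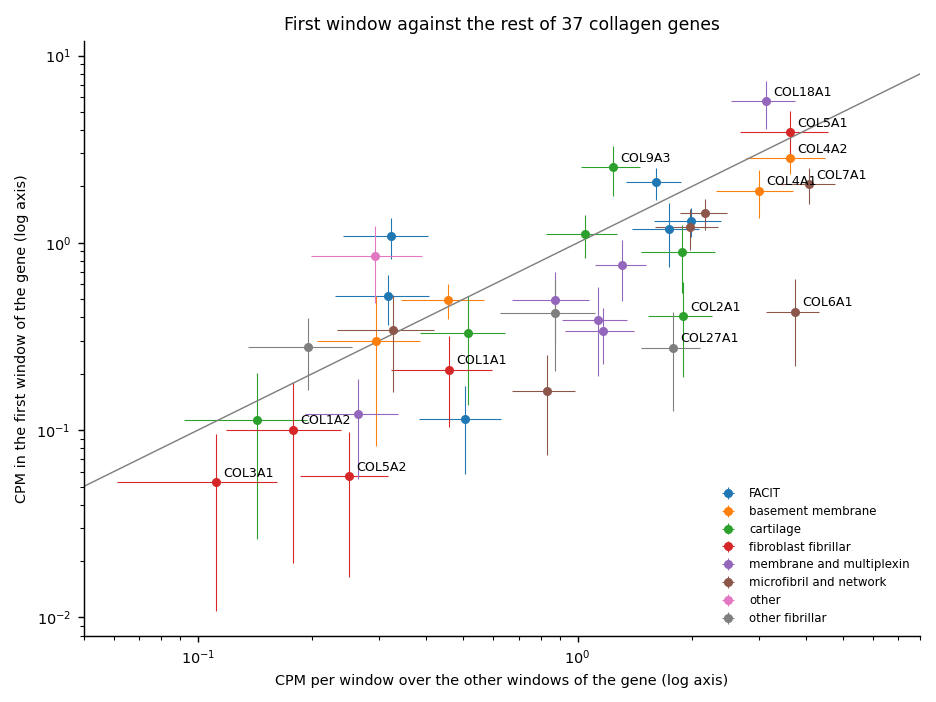
Mean CPM of the first window (vertical, log axis) against mean CPM per window of the rest of the gene (horizontal, log axis) for 37 collagen genes, with bars of 1 SD over 8 samples, colours for the class and a grey line of equality. COL6A1 lies farthest below the line in CPM (0.430 against 3.73) and COL18A1 farthest above it (5.70 against 3.14), with COL3A1, COL1A2 and COL5A2 at the lower left.

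**Figure D3:**
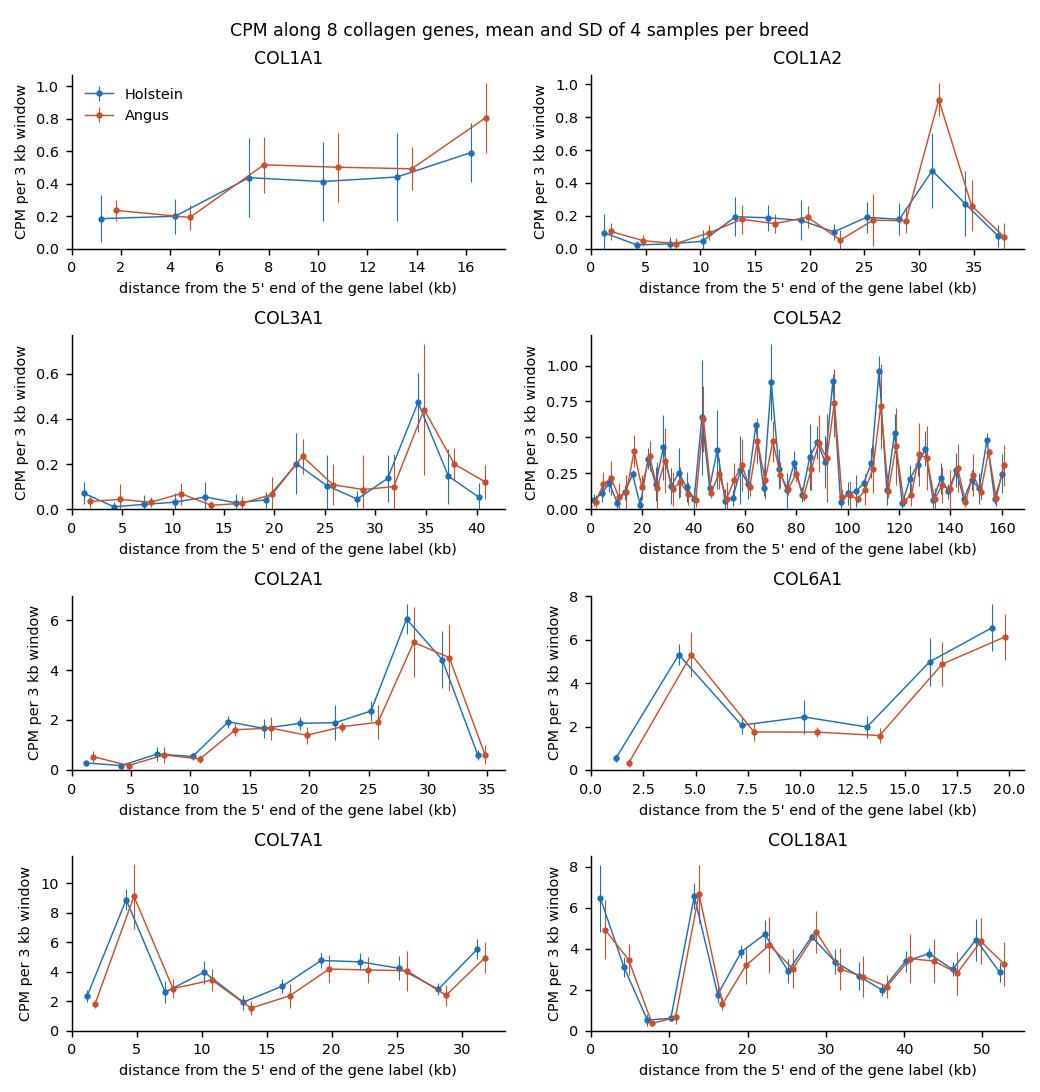
CPM per 3 Kb window (vertical, linear, from 0) against distance from the 5′ end of the gene label in kb for 8 collagen genes, with the mean and SD of 4 samples per breed, Holstein in blue and Angus in orange. COL1A2, COL3A1 and COL2A1 peak at windows 11, 12 and 10 and fall back in the last window (0.0741, 0.0879 and 0.599 CPM). COL6A1 and COL7A1 rise in the second window. Window 11 of COL1A2, named after its values were seen, has breed means of 0.475 and 0.907 CPM. It did not pass (edgeR FDR = 0.180 without the CPM filter).

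Over the 29 collagens with at least 10 windows, the mean rose along the gene. It was 0.888 CPM in the first window, 1.06, 1.08, 1.27, 1.25 and 1.58 CPM in 5 equal parts of the windows between, and 1.38 CPM in the last window. In 7758 other genes of that size the first window held 0.700 CPM, part 5 of the windows between 1.07 and the last window 1.08. Collagen genes have many short exons, and collagen windows with a coding exon, first windows aside, averaged 1.18 ± 0.215 CPM (SD, n = 8), against 0.549 ± 0.118 without one. The same contrast was 1.14 against 0.741 CPM over all named genes. Within genes that had at least 3 windows of each kind, exon windows were higher in 14 of 21 collagens (66.7%), and in 65.6% of all genes. COL6A2, another type VI chain, had the widest ratio, with 3.17 CPM over 6 exon windows against 0.153 over 3 others. Those 3, windows 2 to 4, all lie before coding exon 1, which is in window 5. COL11A1, COL24A1, COL4A3 and COL5A2 had lower exon windows in 8 of 8 samples.

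Long collagen genes had lower levels. The 10 genes with at least 50 windows had a median of 0.307 CPM per window, and the 20 genes with under 20 windows had 1.47. Across the 39 genes the Spearman correlation of window number with CPM per window was -0.43, and over all named genes it was -0.014. These correlations are across genes, which share samples and are not independent replicates. COL22A1 and COL13A1 were exceptions among long genes, with 1.62 CPM per window over 67 windows and 1.12 over 52.

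No collagen window was called between the breeds. By edgeR's likelihood-ratio test on windows with at least 1 CPM in at least 4 samples, 267 of 115360 windows, or 0.231%, passed FDR < 0.1 and FC ≥ 2. Of the 1436 collagen windows, 363 entered the test and 0 passed. An unadjusted p under 0.05 was reached by 11 of the 363 windows, 8 of them higher in Holstein, by the same number with edgeR's quasi-likelihood test and by 8 with DESeq2, where 52 windows had no adjusted p. In the likelihood-ratio test this was 3.03% of the collagen windows, and 4.94% of all windows tested reached such a p. Samples of the breeds did not overlap in 6 of the 363 windows, against 1.31% of all windows tested. For their low counts, no window of COL1A1, COL1A2, COL3A1 or COL5A2 entered the test. Of the fibroblast fibrillar genes only COL5A1 did, with 4 windows. Without the CPM filter 0 of 1434 collagen windows passed.

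The collagen window with the smallest p was window 27 of COL27A1 (chr8:105171587-105174586, no coding exon). It had 1.97, 3.12, 2.04 and 2.98 CPM in Holstein 1 to 4 and 1.5, 2.33, 0.571 and 1.28 CPM in Angus 1 to 4. The breeds overlapped through Angus 2, and Angus 3, with the lowest scaling factor, was the lowest sample. The log2 FC of Holstein over Angus was 0.70 ± 0.21 (SE), with FDR = 0.170 in edgeR's likelihood-ratio test. Without Angus 2 the FDR was 0.00639 at a log2 FC of 0.98, still under the FC threshold, and over all alternatives the FDR ranged from 0.00639 to 0.811. COL27A1 had 30 tested windows, of which 24 were higher in Holstein. Windows 21, 27 and 32 were among 5 with an unadjusted p under 0.05 (edgeR likelihood-ratio test), beside 4.94% of all windows tested. Windows of 1 gene are not independent, and this gene was singled out for its smallest p. Summed over the whole gene, the log2 FC of COL27A1 was 0.054 ± 0.12 (SE) and did not pass. Window 32 of COL27A1 had a log2 FC of 0.56 and window 21 of 0.53.

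The highest window of all collagens was also in COL27A1. Window 13 (chr8:105129587-105132586, coding exon 6) had 9.31, 6.23, 10.03 and 7.26 CPM in Holstein 1 to 4 and 8.03, 9.28, 14.8 and 9.26 CPM in Angus 1 to 4, whereas both neighbouring windows were near the level of the gene or below it. Angus 3 was the highest sample, and the breed difference did not pass (log2 FC -0.54, edgeR FDR = 1.00). The next windows by mean CPM were window 2 of COL7A1 (8.99), windows 26 and 37 of COL4A2 (7.69 and 7.62) and window 5 of COL18A1 (6.63).

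Window 69 of COL21A1 (chr23:4147593-4150592) was higher in Angus. Its values were 0.759, 0.692, 0.832 and 0.816 CPM in Holstein 1 to 4 and 1.05, 1.39, 1.01 and 1.18 CPM in Angus 1 to 4, with no overlap. The log2 FC was -0.74 ± 0.23 (SE), which did not pass (edgeR FDR = 0.245). Window 4 of COL5A1 had a log2 FC of -0.69 ± 0.23 (edgeR FDR = 0.344), with overlapping breeds.

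**Figure D4:**
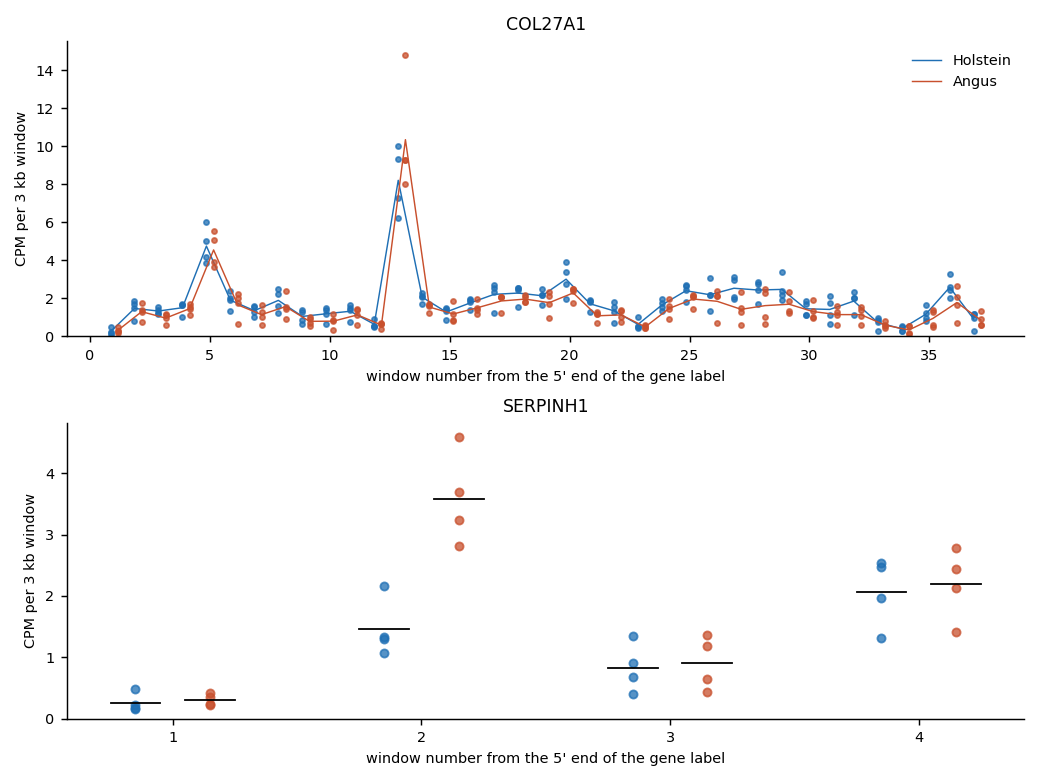
CPM per 3 Kb window (vertical, linear, from 0) by window number from the 5′ end of the gene label (horizontal) in COL27A1 (top) and SERPINH1 (bottom), with 1 point per sample, Holstein in blue and Angus in orange, lines (top) and black bars (bottom) at the breed means. COL27A1 peaks at window 13 in both breeds, and in window 2 of SERPINH1 all 4 Angus samples lie above all 4 Holstein samples.

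Type I collagen genes had the smallest p in the gene-level test, and neither gene passed. The test on counts summed over each gene found 18 of 18436 genes, or 0.0976%, at FDR < 0.1, and 0 of 38 collagens. COL10A1 was below the count minimum. COL1A1 had 0.219, 0.274, 0.511 and 0.507 CPM per window in Holstein 1 to 4 and 0.460, 0.585, 0.347 and 0.437 CPM in Angus 1 to 4. The log2 FC was -0.44 ± 0.22 (SE, edgeR FDR = 1.00), and over the alternatives it ranged from -0.60 to -0.26, the latter without Holstein 2 and with total counts only. COL1A2 had 0.0700, 0.157, 0.209 and 0.193 CPM per window in Holstein 1 to 4 and 0.266, 0.190, 0.137 and 0.156 CPM in Angus 1 to 4. Its log2 FC was -0.43 ± 0.22 (SE, edgeR FDR = 1.00), and over the alternatives it ranged from -0.58 to -0.24, with -0.27 without Angus 1 and -0.24 with total counts only. In CPM without the scaling factors, the breeds overlapped in all 39 collagen genes, and did not in 0.595% of all named genes. An unadjusted p under 0.05 was reached by these 2 collagen genes in the likelihood-ratio test and by 0 in the quasi-likelihood test and DESeq2. Over all genes tested the shares were 2.01%, 1.69% and 1.36%.

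Window 11 of COL1A2 (chr4:11654205-11657204, coding exon 41) did not reach the CPM minimum. It had 0.354, 0.216, 0.681 and 0.647 CPM in Holstein 1 to 4 and 1.01, 0.974, 0.840 and 0.803 CPM in Angus 1 to 4, with no overlap between breeds. In the edgeR fit without the filter its FDR was 0.180. This window was named after its values were seen.

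COL3A1 had a log2 FC of -0.30 ± 0.28, and its direction turned to 0.10 without Angus 1. Over all 38 genes, 22 had log2 FC values below 0 and 16 above, with a median of -0.030 beside -0.018 over all genes tested. Without scaling beyond total counts the median of all genes was at 0.15 and that of the collagens at 0.14. COL5A3, a type V chain, had the largest value in the Holstein direction, at 0.20 ± 0.12.

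**Figure D5:**
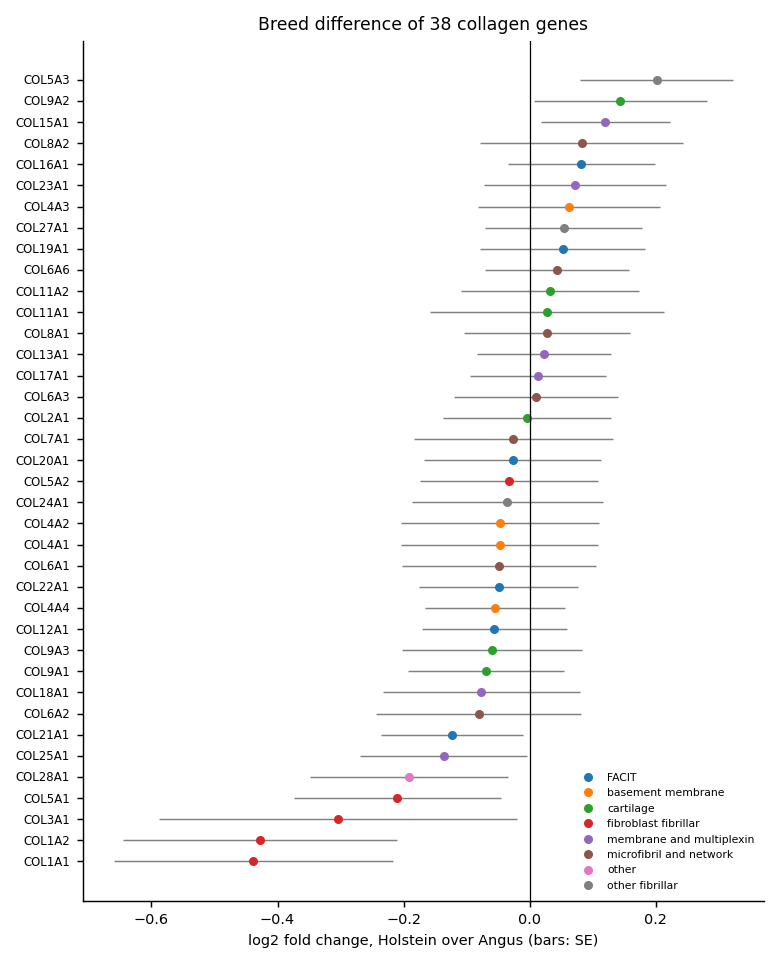
Log2 FC of Holstein over Angus from edgeR's likelihood-ratio test (horizontal) with bars of 1 SE for 38 collagen genes in order, with colours for the class. COL1A1 and COL1A2 are lowest at -0.44 and -0.43, COL5A3 is highest at 0.20, and no gene passed FDR < 0.1.

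Genes that modify, fold and crosslink collagen were listed separately. Among 29 such genes, 18 of 28 tested had a lower first window and 2 a higher one (P4HA3, a prolyl hydroxylase subunit, and PPIB, a prolyl isomerase), against 55.5% and 18.9% of all genes. In the breed tests 1 of 28 genes passed, higher in Angus, and 1 of 174 windows. Over all genes and windows tested, 0.0976% and 0.231% passed. The list was chosen with earlier results of these data known, so these 2 calls say nothing about the list as a whole.

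That gene was SERPINH1, which encodes HSP47, the chaperone that binds collagen chains in the endoplasmic reticulum. It had 0.733, 1.32, 1.32 and 1.25 CPM per window in Holstein 1 to 4 and 1.73, 1.76, 1.44 and 2.06 CPM in Angus 1 to 4, without overlap. The log2 FC was -0.78 ± 0.15 (SE), with FDR = 0.00267 in edgeR's likelihood-ratio test. The call was lost with the quasi-likelihood test (FDR = 0.640), with total counts only (FDR = 0.982) and without Holstein 4 (FDR = 0.103). The range over alternatives was 2.42e-05 to 0.982.

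The window that passed was window 2 of 4, which holds coding exon 1 of SERPINH1 (chr15:55516557-55519556, + strand). It had 1.06, 1.30, 2.16 and 1.32 CPM in Holstein 1 to 4 and 3.25, 2.82, 3.69 and 4.60 CPM in Angus 1 to 4, so that the lowest Angus sample was above the highest Holstein sample. The log2 FC was -1.46 ± 0.22 (SE), with FDR = 2.81e-07 in edgeR's likelihood-ratio test, and from 3.39e-12 to 0.00357 over its alternatives. In window 4 of SERPINH1, at coding exon 4, the breeds had 2.07 and 2.19 CPM (edgeR FDR = 1.00). SPARC, a collagen-binding matrix protein that is also secreted by fibroblasts, had a log2 FC of -0.46 ± 0.16 and did not pass (edgeR FDR = 0.911).

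First windows of marker genes were examined as a check of the labelled cell type, although methylation counts no RNA. The fibroblast list of 8 genes, which includes COL1A1, COL1A2 and COL3A1, had a median of 0.155 CPM and ranged from 0.0248 in DCN, a small proteoglycan of dermal matrix, to 0.341 in VIM, an intermediate filament protein. The first window was lower than the rest in 5 of 5 fibroblast genes tested, 3 of them the collagens above, in 1 of 4 keratinocyte, 2 of 3 endothelial and 1 of 3 melanocyte genes, and in 55.5% of all genes. Keratinocyte, endothelial and melanocyte lists, of 3 or 4 genes each, had medians of 1.16, 1.08 and 0.852 CPM. The lists overlapped, since PMEL of the melanocyte list had 0.206 CPM and COL17A1 of the keratinocyte list 0.336.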

How the data were processed

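Read counts per 3 Kb window were used as deposited. Per the study's methods and the labels, the authors processed reads with CASAVA 1.7, filtered and aligned them to UMD v3.1 with NextGENe 2.3.4 and counted raw reads. How duplicate reads were treated is not given in the sources used here. The deposited coverage columns (signal: lowest, highest and mean coverage of a window) were used only for the highest coverage. Each window carries 1 gene name.

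CPM was the count of a window divided by the total of all windows of that sample. Between breeds, edgeR 4.0.16 (R 4.3.3) fitted TMM-scaled counts by a likelihood-ratio test on windows, or gene sums, with CPM ≥ 1 in at least 4 samples (FDR < 0.1, and for windows FC ≥ 2). DESeq2 1.42.0 and edgeR's quasi-likelihood test were alternatives. Position in the gene was tested by exact sign flips over 8 samples (256 flips). P-values treat the animals as replicates. Counting floors cover counting error only.

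Genes were named by rule: all genes of the fibroblast fibrillar, cartilage and basement membrane lists, every collagen call between breeds, the 5 windows of smallest p and the 5 of highest CPM, the 3 highest and 3 lowest first windows, and the 3 widest called gaps in each direction. The members and lists were chosen with earlier results of these data known. Breeds share replicate numbers, but same-numbered samples did not deviate together (mean correlation -0.020, from -0.22 to 0.11), so no block was used. On simulated window counts, with 115360 windows, 22 of 50 changes of 2-fold and 50 of 50 of 3-fold were called, with 8 false calls. A window call also needs FC ≥ 2, so a true 2-fold change lies at that threshold. On simulated gene sums, called without an FC minimum, 44 of 50 changes of 2-fold were called, with 16 false calls. With 15129 genes simulated, the position test called 0 of 200 changed genes when few genes changed, because its smallest p is coarse. It called 7517 of 7733 when many did, with 169 false calls. No genome sequence was used.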

Additional observations from a re-analysis of the deposited data

Results flagged for a closer look

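In first windows of the named collagens, Holstein 1 lay apart from the other 3 Holstein samples in 3 genes: COL4A2 (2.07 CPM, others 3.06 to 3.18), COL5A1 (2.88, others 4.41 to 4.62) and COL5A2 (0, others 0.0757 to 0.0866, which is 2 to 3 reads). By the criterion used, 8 of 156 sets of 4 values stood apart over all collagens, or 5.13%, and chance flags about 1 in 20. Over all named genes the shares were 5.67% for whole genes and 5.60% for first windows. Such shares do not show how the flags fell over the samples. Holstein 1 was also flagged as lowest in the whole genes COL13A1 (0.856 CPM per window, others 1.25 to 1.33) and COL5A3 (0.566, others 1.06 to 1.10). The remaining flags were COL17A1 in Angus 3, COL23A1 in Holstein 4 and COL25A1 in Angus 2. Holstein 1 also had the second lowest scaling factor (0.817), and its part in these values was not tested.

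Collagens outside the 39 also gave signal. On the X chromosome COL4A5 had 0.154 CPM per window over 108 windows and COL4A6 had 0.272 over 63. Under other names, by the RefSeq gene table, were COL6A5 (LOC785805, 0.459 CPM per window), part of COL28A1 (LOC100847952, 0.313), part of COL5A1 (LOC100848491, 5.30), COL14A1 (LOC781493, 1.54) and COL26A1 (EMID2, 1.08). These values belong to no comparison above.

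The highest coverage at any base of a collagen window was 124, in window 13 of COL27A1 in Angus 3. In the other samples it was 34 to 76 there, and the next window by highest coverage reached 45, in COL22A1.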

How the results depend on the processing

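The counts of collagen windows and genes called between breeds stayed at 0 under every alternative run: other tests, scalings, filters and thresholds, chromosomes 1 to 29 only, and each sample left out (0 to 0). With the replicate block, 346 windows and 20 genes were called in all, and 0 collagen windows and 0 collagen genes. In the whole table, the number of windows called was 267, and 141 with the quasi-likelihood test, 141 with DESeq2, 425 with no FC minimum and 905 with no CPM filter. For genes it was 18, and 0 with the quasi-likelihood test (312 at an unadjusted p under 0.05), 8 with DESeq2 and 35 with no filter. Single samples moved these counts too: 564 windows were called without Holstein 1, 176 without Holstein 3 and 145 without Holstein 4, and 9, 12 and 2 genes without Holstein 2, 3 and 4 and 41 without Angus 1. Collagens with a lower first window numbered 23, and 22 to 23 with 1 sample left out. Their median first window of 0.494 CPM ranged from 0.461 to 0.516 with 1 sample left out and was 0.966 as a mean over genes. The median gene level of 1.06 CPM per window ranged from 1.01 to 1.11 with 1 sample left out, and was 1.28 with library sizes over chromosomes 1 to 29 and 1.29 as a mean over genes. Directions turned for COL3A1 between breeds without Angus 1 (0.10, and from -0.41 to 0.10 with 1 sample left out), for the first window of COL5A1 without its last window (-0.93 CPM, adjusted p 0.0129) and for that of COL4A3, whose difference was near 0, on the log2 scale (-0.15) and without Holstein 2, 3 or 4 or Angus 3 (-0.031, -0.00089, -0.019 and -0.024 CPM, and from -0.031 to 0.033 with 1 sample left out). The cause was not tested. With the replicate block, window 27 of COL27A1 had FDR = 0.0182 at a log2 FC of 0.77, under the FC threshold, and the numbers do not pair the samples.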
